A study of Mus musculus with 8 samples.

Results

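The genotype by PTU term compares what PTU did in SMRTmRID mutant lungs with what it did in wild-type lungs. PTU, propylthiouracil, is a drug that blocks the synthesis of thyroid hormone. The term was calculated for each probe on the log2 scale as mRID with PTU minus mRID on control chow, minus the same diet difference in wild type. A positive term means that the PTU difference was higher in mRID than in wild type. Of 25697 probes on the arrays, 14965 were detected on both arrays of at least 1 group and have a term. They cover 10298 of the 16593 genes on the array, each represented by its brightest kept probe.

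The arrays measured lung RNA of mouse embryos at embryonic stage E18.5, on a c57Bl6/J background. There were 4 groups: mRID embryos whose mothers were fed 0.15% PTU from E16.5 on, mRID embryos of mothers on control chow, wild-type embryos of mothers on the PTU diet, and wild-type embryos of mothers on control chow. The labels describe the 2 arrays of a group as technical replicates, so each group is treated as 1 RNA sample and the sources used here do not give the number of embryos in it. Each difference below is therefore one between RNA samples. Errors are standard errors from the 2 arrays of each group (array SE), which hold no variation between embryos, and no test was made.

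Thyroid hormone receptors sit on DNA with or without hormone. Without hormone they bind corepressors, which bring histone deacetylase to the gene. The mRID mutation alters receptor interaction domains, through which a corepressor contacts nuclear receptors. In the late fetal lung, thyroid hormone and glucocorticoids promote thinning of the air space wall, type I pneumocytes form the flat gas-exchange surface and type II pneumocytes make surfactant.

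The arrays were of similar quality. Mean signals ranged from 294 to 376, and 54.7% to 58.8% of probes were detected. Arrays of the same RNA correlated at 0.996 over kept probes, arrays of different RNA at 0.988 to 0.994. Lung markers were present, with Sftpc, a surfactant protein gene, at 13.61 and 13.63 in mRID with PTU, 13.75 and 13.66 in mRID on control chow, 13.57 and 13.76 in wild type with PTU, and 13.51 and 13.63 in wild type on control chow. All 13 kept type I markers were detected in every group. Thra, a thyroid hormone receptor gene, was near the detection limit with a term of 0.59 (array SE 0.32), and the Thrb probe was detected on 0 arrays.

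A probe was called when its term was at least 1 in size, which is a 2-fold ratio of ratios, with the same sign in all 16 choices of 1 array per group. By this rule 290 probes were called positive, 1.94% of those kept, and 64 negative, 0.428%. On the gene level 187 genes were positive (1.82%) and 45 negative (0.437%). All 354 probes that reached the size also kept their sign. The median term over genes was -0.04, and 44.1% of genes had a term above 0, so the excess of positive calls lay among the large terms. The median array SE of a term was 0.14. Just inside the threshold were Gltp and G3bp2, both with a term of 1.0011, and just outside it the keratin gene Krt15 at 0.9992 and Nudt16 at 0.9982.

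Each term was then described by the RNA sample that stood apart. The 4 group means of a probe were sorted, and the largest of the 3 gaps between neighbours showed whether 1 sample lay alone or a pair lay against a pair. The mRID PTU sample stood alone in 163 of the 354 called probes, 46.1%, against 23.0% of all kept probes. It was the highest in 157 of them and the lowest in 6. In 151 of the 157 the gap to the next sample made up at least 0.5 of the range of the 4 means, whereas with wild type with PTU alone low this held for 21 of 41 probes. Wild type on control chow stood alone in 61 called probes, wild type with PTU in 54 and mRID on control chow in 2. The remaining 74 probes split pair against pair. In 38 of these, mRID with PTU and wild type on control chow were the higher pair. In 33 others mRID on control chow and wild type with PTU were the higher pair, the commonest form of a negative term with 51.6% of the 64.

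**Figure D1:**
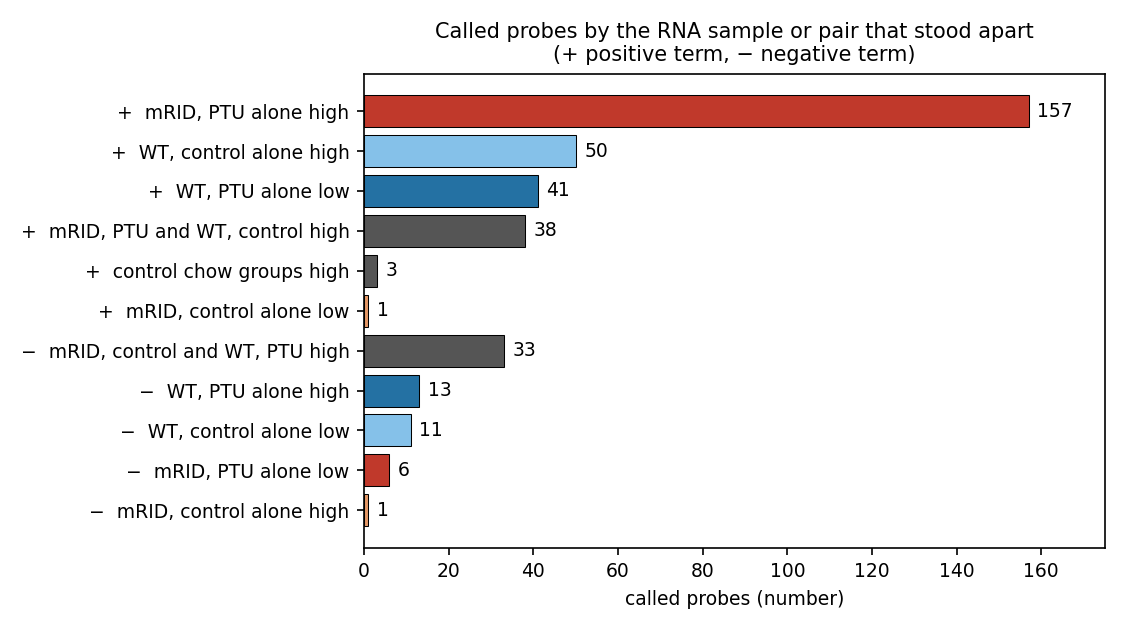
Bars give the number of called probes (horizontal axis) for each pattern, named by the RNA sample or pair that stood apart and whether it was high or low. The mRID PTU sample alone high has the longest bar, 157 probes, and mRID on control chow alone has 1 probe of each sign.

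The differences between samples were also taken over all kept probes. The root mean square difference was 0.264 between mRID with PTU and mRID on control chow, 0.285 between mRID with PTU and wild type with PTU, and 0.282 between mRID with PTU and wild type on control chow. Among the other 3 samples the most alike were mRID on control chow and wild type with PTU, at 0.193, with 19 probes 2-fold apart. The value was 0.212 between mRID on control chow and wild type on control chow. The 2 wild-type diets differed by 0.274, with 118 probes 2-fold apart, so the 2 wild-type samples were no closer to each other than the 2 mRID samples were. Of the called probes, 243 had a PTU difference of opposite direction in the 2 genotypes, with no overlap between PTU and control arrays in either. These were 68.6% of the called probes, whereas 19.1% of all kept probes had such an opposition. In 188 of them PTU was higher than control chow in mRID and lower in wild type, and in 55 it was the other way round. In 56 probes PTU and control arrays were separate in mRID alone, in 21 in wild type alone, and in 34 both genotypes had the same direction. The call itself favours opposite directions, because a large term arises more readily when the 2 PTU differences have opposite signs. An opposite difference could also be small, as in Acta1 with 1.63 in mRID and -0.10 in wild type.

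**Figure D2:**
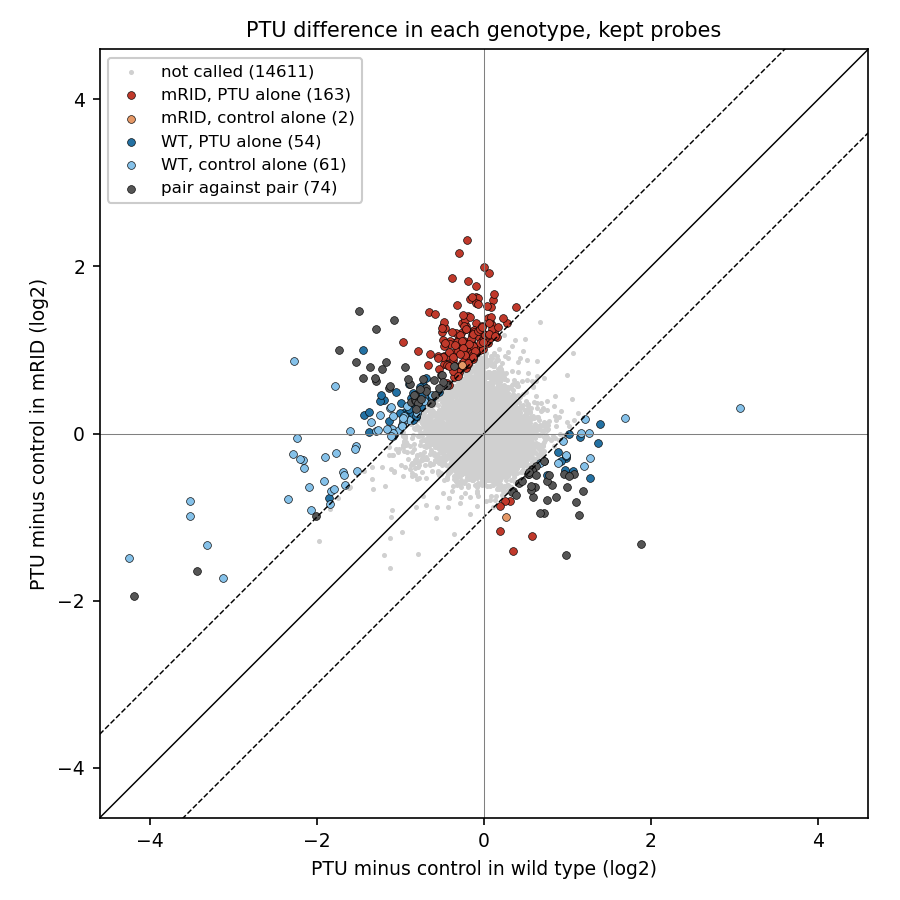
Each point is a kept probe, with the PTU difference in mRID on the vertical axis and in wild type on the horizontal axis (both log2). Dashed lines mark a term of 1 and of -1, and called probes are coloured by the RNA sample that stood apart. The 163 red points of the mRID PTU sample lie between -0.97 and 0.57 on the wild-type axis, and the 61 light blue points of the wild-type control sample spread from -4.25 to 3.07 along it.

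Among genes with the mRID PTU sample alone high, the largest terms were those of Zc3h13, Klf6, Myh8 and Bbx. Zc3h13, a zinc finger component of the RNA methylation machinery, read 8.40 and 8.31 in mRID with PTU, 6.14 and 6.25 in mRID on control chow, 6.22 and 5.86 in wild type with PTU, and 6.31 and 6.37 in wild type on control chow. Only the mRID PTU arrays were high, and the term was 2.46 (array SE 0.19). Klf6, a Krüppel-like transcription factor, read 10.76 and 10.65 in mRID with PTU, 9.19 and 9.33 in mRID on control chow, 9.05 and 9.04 in wild type with PTU, and 9.67 and 9.73 in wild type on control chow. Its term was 2.10 (array SE 0.09), and a dimmer probe gave 2.25. Bbx, an HMG-box transcription factor gene, averaged 7.85 in mRID with PTU, 6.02 in mRID on control chow, 5.92 in wild type with PTU and 6.12 in wild type on control chow (term 2.02). The fetal myosin gene Myh8 had a term of 2.06, where mRID with PTU was high at 7.07 and 6.97 and wild type with PTU also low at 5.04 and 4.93, against 5.91 to 5.97 in the groups on control chow. A dimmer Myh8 probe, near the detection limit, had a term of 0.37 and was not called.

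Other listed genes of this pattern were few. Edn1, which encodes the vasoconstrictor endothelin, read 8.26 and 8.12 in mRID with PTU and 7.22 to 7.71 in the other groups (term 1.15). Sec14l3, a lipid transfer gene of airway epithelium, read 9.25 and 9.22 in mRID with PTU and 7.98 to 8.54 elsewhere (term 1.54). Col1a2, a collagen of connective tissue, had a term of 1.00, with 10.65 and 10.80 in mRID with PTU and 9.50 to 9.74 elsewhere. Its partner chain Col1a1 had a term of 0.16. Each value is that of the gene's brightest kept probe, and whether the chains or only these probes differed was not tested. The Col1a2 term lay at the threshold and ran from 0.925 to 1.08 when 1 array was left out.

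In the mRID PTU pattern, probes of the same gene often disagreed. Of its 145 named called probes, 58 (40.0%) were not the brightest kept probe of their gene. The brightest probe of the same gene was called in 13 of the 58 cases and not in 45. In 36 it had a term under 0.5 in size, and in 23 a term below 0. The median term was 1.28 for the called probes and 0.15 for the brightest ones, and their median levels were 6.37 and 9.02. In all other patterns 38 of 183 named called probes (20.8%) were not the brightest, and the brightest was called in 25 of those 38, under 0.5 in 3 and opposite in 0. The called probes were picked for their size, which tends to make a second probe smaller in every pattern. Probe positions within transcripts were not analysed here.

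Luc7l3, which encodes a splicing factor, shows the disagreement at high signal. One probe read 11.98 and 11.98 in mRID with PTU, 10.57 and 10.57 in mRID on control chow, 10.56 and 10.55 in wild type with PTU, and 10.74 and 10.75 in wild type on control chow (term 1.60, array SE 0.01). The brightest Luc7l3 probe stayed between 11.68 and 12.06 on all arrays, with a term of -0.23. Akap9, a scaffold gene of the centrosome and Golgi, had a called probe at 7.32 and 7.46 in mRID with PTU and 5.33 to 5.66 elsewhere (term 1.85), while its brightest probe lay between 10.62 and 10.91 (term -0.21). Sparc, a matrix glycoprotein gene, had terms of 1.46 and -0.03 for its called and brightest probes. Wnt5a, a signalling ligand of lung mesenchyme, had terms of 1.30 and -0.16. For the spectrin gene Sptbn1 they were 2.01 and 0.45. The reverse also occurred, as the probes of the RNA helicase gene Ddx6 had terms of 1.86, 1.44 and, for the brightest, 1.69.

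**Figure D3:**
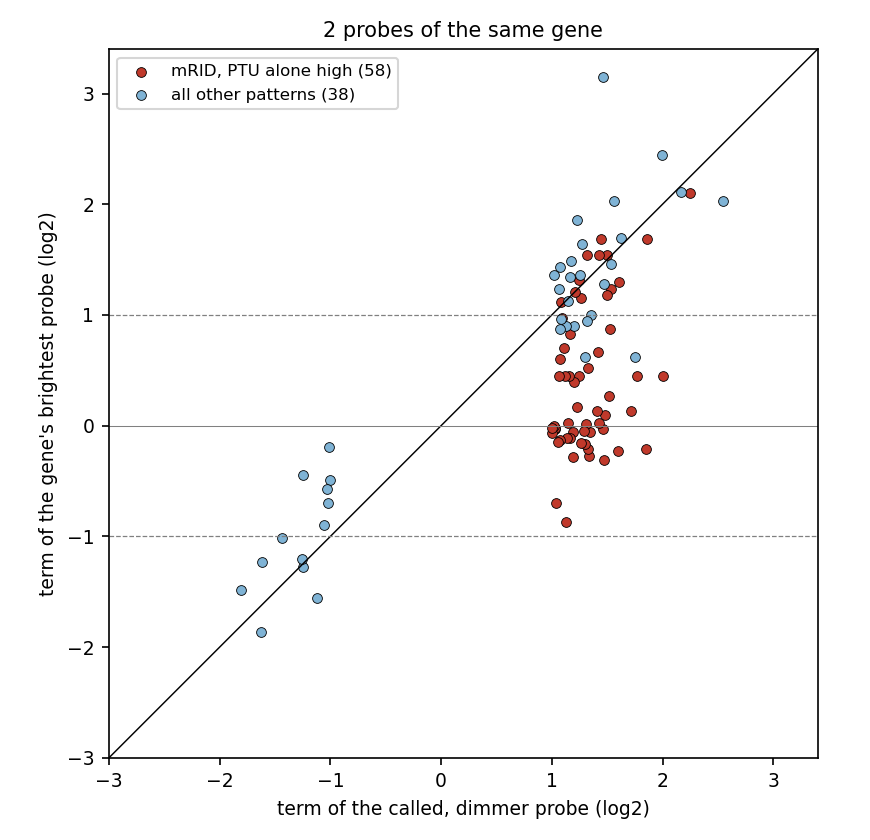
Points are called probes that are not the brightest of their gene, with their own term on the horizontal axis and the term of the gene's brightest probe on the vertical axis (log2). Red points, with mRID PTU alone high, fall largely between -0.5 and 0.5 on the vertical axis (36 of 58). Of the 38 blue points, all other patterns, 3 fall there, and in 25 the brightest probe was called too. Some blue points lie off the diagonal, such as Ifit3 at 1.46 and 3.15.

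Immediate early genes, which cells switch on within minutes of a stimulus, were high in mRID with PTU and in wild type on control chow. Of 13 kept members 6 were called, all positive, against 1.82% of all genes, and the list median was 0.92. Fos, a subunit of the AP-1 transcription factor, read 9.62 and 9.70 in mRID with PTU, 8.64 and 8.69 in mRID on control chow, 8.67 and 8.70 in wild type with PTU, and 10.35 and 10.50 in wild type on control chow. Both pairs were well apart, and the term was 2.74 (array SE 0.09). Ier2 read 6.52 and 6.53 in mRID with PTU, 4.99 and 5.13 in mRID on control chow, 5.33 and 5.45 in wild type with PTU, and 6.88 on both arrays of wild type on control chow (term 2.96). Egr1, a zinc finger factor induced by growth factors, had a term of 2.39, and Ccn1, a matricellular gene, 2.03. The phosphatase gene Dusp1 had a term of 1.20. Fosb was undetected on both arrays of mRID on control chow and of wild type with PTU, which leaves a term of at least 0.73. That bound is under the threshold of 1, and Fosb was kept through wild type on control chow alone. The list was not uniform, since Jun (0.74), Junb (0.63) and Ier3 (0.19) were not called and Egr2 lay at -0.64 and Btg2 at -0.46. Heat shock genes, another stress list, had 0 of 10 called and a median of -0.09.

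Interferon response genes had a list median of 1.29, and all 12 kept members had a term above 0, against 44.1% of all genes. Of the 12 members 8 were called positive, against 1.82% of all genes. Ifit3, an antiviral RNA-binding gene, read 7.82 and 7.78 in mRID with PTU, 6.93 and 6.92 in mRID on control chow, 6.50 and 6.57 in wild type with PTU, and 8.89 and 8.73 in wild type on control chow. It had the largest positive term of all genes, 3.15 (array SE 0.09). Rsad2, which encodes viperin, differed in form, as mRID with PTU (8.12 and 8.12) was not above mRID on control chow (8.29 and 8.56), whereas wild type with PTU read 7.60 and 7.39 and wild type on control chow 9.66 and 9.72 (term 1.89). In the bright gene Oasl2, of the oligoadenylate synthetase family, wild type with PTU stood alone low, with 10.43 and 10.74 in mRID with PTU, 10.12 and 10.13 in mRID on control chow, 9.47 and 9.48 in wild type with PTU and 10.65 and 10.78 in wild type on control chow (term 1.70).

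By sample, 5 of the 8 called members had wild type with PTU alone low, namely Oasl2, Isg15, Usp18, Bst2 and Irf7, and 3 had wild type on control chow alone high, namely Ifit3, Rsad2 and Ifi27l2a. The separation was graded. The gap was at least 0.5 of the range for Bst2 (0.65 of it), Ifi27l2a (0.63), Rsad2 (0.58) and Oasl2 (0.52), and less for Ifit3 (0.44), Usp18 (0.41), Irf7 (0.39) and Isg15 (0.38). The summed signal of the list was 3543 to 3904 in mRID with PTU, 2898 to 2997 in mRID on control chow, 2021 to 2049 in wild type with PTU and 5079 to 5191 in wild type on control chow. Isg15, a ubiquitin-like modifier, was detected on 1 of the 2 wild-type PTU arrays. The transcription factor gene Irf7 had a term of 1.09 and the deconjugating protease gene Usp18 1.37. Ifih1 (0.23), Rtp4 (0.41), Ifit2 (0.71) and Gbp2 (0.94) were not called.

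Interferon-stimulated response elements were looked for in the promoters of these genes, because the members moved together. The motif searched was TTTCNNTTTC on both strands (GAAANNGAAA on the other), overlapping matches included, in RefSeq promoters of build GRCm38.p6 from 250 bases before to 50 bases after a gene's start. Of the 8 called members 6 were in the promoter table, and 4 held the motif, while 2 of 3 members that were kept and not called held it too. The motif was present for 3.99% of all 27025 genes in that table and for 3.66% of the genes kept on the arrays. A match is a description of the letters. The windows around the matches are shown because they carry the letters shared by these genes, in the gene's direction and with the motif in capitals, at chr19:34583328-34583461 (plus strand), chr4:156200830-156200941 (minus), chr12:26456518-26456617 (minus) and chr8:71537542-71537647 (minus).
Ifit3: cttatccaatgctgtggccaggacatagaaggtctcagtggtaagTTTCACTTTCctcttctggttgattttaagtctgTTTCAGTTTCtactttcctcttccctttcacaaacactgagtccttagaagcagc
Isg15: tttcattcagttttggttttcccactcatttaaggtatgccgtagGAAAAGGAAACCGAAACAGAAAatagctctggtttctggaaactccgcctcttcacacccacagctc
Rsad2: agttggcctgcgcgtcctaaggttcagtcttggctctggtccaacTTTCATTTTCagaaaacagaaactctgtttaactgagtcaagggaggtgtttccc
Bst2: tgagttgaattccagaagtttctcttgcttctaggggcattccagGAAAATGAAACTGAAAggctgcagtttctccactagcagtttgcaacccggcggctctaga
Ifit3 held 2 separate matches, Isg15 3 overlapping ones, Bst2 2 overlapping ones and Rsad2 1, and Oasl2 and Irf7 held none in this window.

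**Figure D4:**
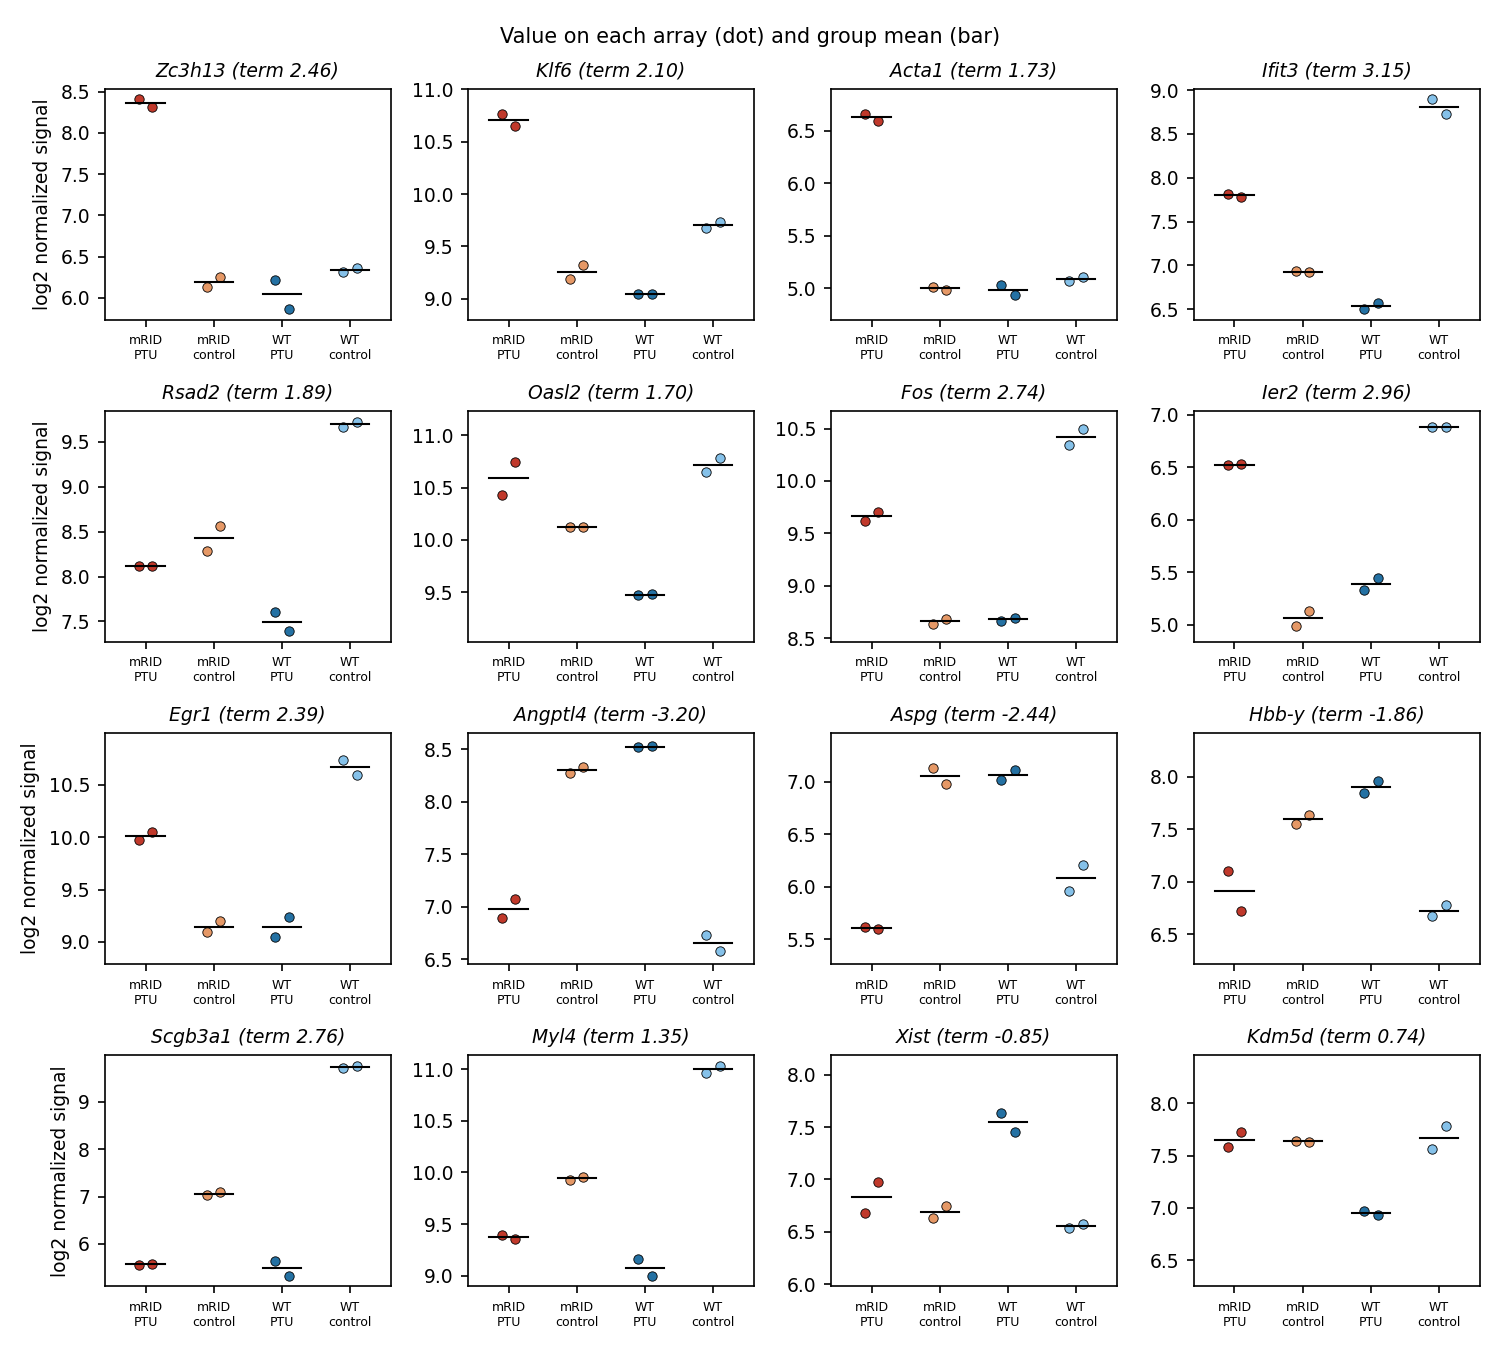
Each dot is 1 array and each bar a group mean of the log2 normalized signal (vertical axis, scaled to each panel), for 16 genes in the 4 RNA samples. Zc3h13, Klf6 and Acta1 are high in the mRID PTU sample alone, Fos, Ier2 and Egr1 are high there and in wild type on control chow, and Angptl4, Aspg and Hbb-y are low in both of those.

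A further set of positive terms came from wild type on control chow alone, where genes of airway and squamous epithelium were high. Scgb3a1, a secretoglobin of airway secretory cells, read 5.55 and 5.58 in mRID with PTU, 7.03 and 7.09 in mRID on control chow, 5.65 and 5.33 in wild type with PTU, and 9.72 and 9.76 in wild type on control chow. PTU was lower than control chow in both genotypes, by more in wild type, and the term was 2.76 (array SE 0.16). In the antimicrobial lectin gene Reg3g wild type on control chow was again the highest and mRID on control chow the next, with 5.35 and 5.36 in mRID with PTU, 6.82 and 7.33 in mRID on control chow, 5.71 and 5.89 in wild type with PTU and 8.89 and 8.96 in wild type on control chow (term 1.40). Scgb1a1, the secretoglobin of club cells, had a term of 0.83, and Cbr2, a carbonyl reductase of club cells, of -0.14. Of 11 airway secretory members 3 were called positive, against 1.82% of all genes, and the median was 0.68. Mfap5, a microfibril gene of connective tissue, read 5.77 and 5.98 in mRID with PTU, 6.04 and 6.19 in mRID on control chow, 5.20 and 5.12 in wild type with PTU, and 7.51 and 7.38 in wild type on control chow (term 2.04). Paip1, which encodes a partner of the poly(A)-binding protein, had both control chow samples high, with 5.40 and 5.54 in mRID with PTU, 7.46 and 7.36 in mRID on control chow, 4.62 and 4.69 in wild type with PTU, and 8.90 and 8.80 in wild type on control chow (term 2.25).

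Of 16 squamous epithelial genes on the array 12 were kept, 4 of them through wild type on control chow alone. Among the 12, 5 were called positive and 1 negative, against 1.82% and 0.437% of all genes. The median of 0.71 over the kept genes depended on the filter, as it was 0.10 over genes detected on all 8 arrays and 1.65 with a detection p under 0.01 in place of 0.05. Krt4 was undetected in wild type with PTU, which leaves a term of at least 2.37, and for Krt14 and Psca the bounds were 1.96 and 1.86. Krt13 and Trp63, a keratin gene and a regulator of basal cells, were undetected in groups that enter the term with opposite signs and have no bound. Lor, a protein of the cornified envelope, went the other way, with 8.47 and 8.43 in wild type with PTU and 7.01 to 7.43 elsewhere (term -1.27). Over all 16 genes, kept or not, the summed signal was 422 to 462 in mRID with PTU, 463 to 475 in mRID on control chow, 619 to 633 in wild type with PTU and 1259 to 1370 in wild type on control chow. In whole-lung RNA, fewer cells of a type and less RNA per cell cannot be told apart.

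Genes of other tissues moved with the samples as well. Cardiac genes, which also mark the muscle of pulmonary veins in mice, had 4 of 9 members positive and a median of 0.97, with summed signals of 1323 to 1374 in mRID with PTU, 2305 to 2307 in mRID on control chow, 1127 to 1199 in wild type with PTU and 4419 to 4595 in wild type on control chow. Their called members were Sln (1.56), Myl4 (1.35), Myl7 (1.02) and Actc1 (1.00), and Myl3 lay at -0.49. Skeletal muscle genes had 3 of 9 positive. For the cardiac and skeletal lists alike, the share called positive over all genes was 1.82%. The skeletal actin gene Acta1 read 6.66 and 6.60 in mRID with PTU and 4.94 to 5.10 elsewhere (term 1.73), and the light chain gene Myl1 had a term of 2.43. Their summed signal was 624 to 654 in mRID with PTU, 327 to 352 in mRID on control chow, 247 to 255 in wild type with PTU and 527 to 547 in wild type on control chow. Of 10 liver genes on the array 5 were kept, 4 of them through the mRID PTU arrays alone, so detection among the kept ones was set by the filter. Over all 10, kept or not, the summed signal was 145 on both arrays of mRID with PTU, 45 on both of mRID on control chow, 56 to 87 in wild type with PTU and 36 to 44 in wild type on control chow, and 0 of the 5 were called. Thymus genes had 0 of 4 called, with summed signals of 130 to 133 in mRID with PTU, 106 to 116 in mRID on control chow, 79 to 94 in wild type with PTU and 120 to 128 in wild type on control chow. Whether unequal inclusion of other tissues had a part in the terms was not tested.

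Type I pneumocyte markers had small positive terms. Of 13 members 12 had a term above 0, the median was 0.44, 2 were called positive and 1 negative. Over all genes 44.1% were above 0, 1.82% were called positive and 0.437% negative. Col4a3 and Col4a4, basement membrane collagens of the alveolar wall, had wild type with PTU alone low. Col4a3 read 8.24 and 8.10 in mRID with PTU, 8.03 and 7.84 in mRID on control chow, 7.64 and 7.47 in wild type with PTU, and 8.64 and 8.33 in wild type on control chow (term 1.16, array SE 0.21). For Col4a4 the term was 1.03 (array SE 0.10). A dimmer Col4a4 probe had a term of 0.89, was not called and had wild type on control chow alone high. Igfbp2, which marks mature type I cells, had a term of -1.56, with 6.81 and 6.49 in mRID with PTU, 7.56 and 7.34 in mRID on control chow, 7.60 and 7.68 in wild type with PTU, and 6.76 and 7.0 in wild type on control chow. Ager, the receptor that marks the type I cell membrane, had a term of 0.57 and its other probe 0.69. The water channel gene Aqp5 had 0.37 and Pdpn, a type I surface glycoprotein, 0.36. The list's summed signal was 37758 to 38874 in mRID with PTU, 35331 to 36110 in mRID on control chow, 33084 to 34556 in wild type with PTU and 41048 to 41519 in wild type on control chow. Type II and surfactant genes had 0 of 18 called and a median of -0.13, with Sftpc at -0.18 and Sftpb at -0.45.

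The endothelial list had a median of 0.42, and 13 of 14 members were above 0, against 44.1% of all genes. Car4, a carbonic anhydrase of lung capillaries, was the 1 called member, positive, against 1.82% of all genes. It read 9.55 and 9.40 in mRID with PTU, 8.85 and 9.02 in mRID on control chow, 8.43 and 8.46 in wild type with PTU, and 9.55 and 9.62 in wild type on control chow (term 1.68). Of 7 members of the list of Klf2, Klf4 and flow-responsive genes 3 were called positive, against 1.82% of all genes. The list median was 0.70. Klf2, a Krüppel-like factor induced by blood flow, read 10.24 and 10.13 in mRID with PTU, 9.96 and 9.98 in mRID on control chow, 9.77 and 9.86 in wild type with PTU, and 10.69 and 10.84 in wild type on control chow (term 1.17). The wild-type control arrays were the highest, and the mRID PTU arrays lay above the other 2 groups. Klf4 had a term of 0.62 for its brightest probe and of 1.75 and 1.30 for the dimmer ones. Pecam1, the pan-endothelial adhesion molecule, had a term of 0.17 and Nos3 of -0.13.

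**Figure D5:**
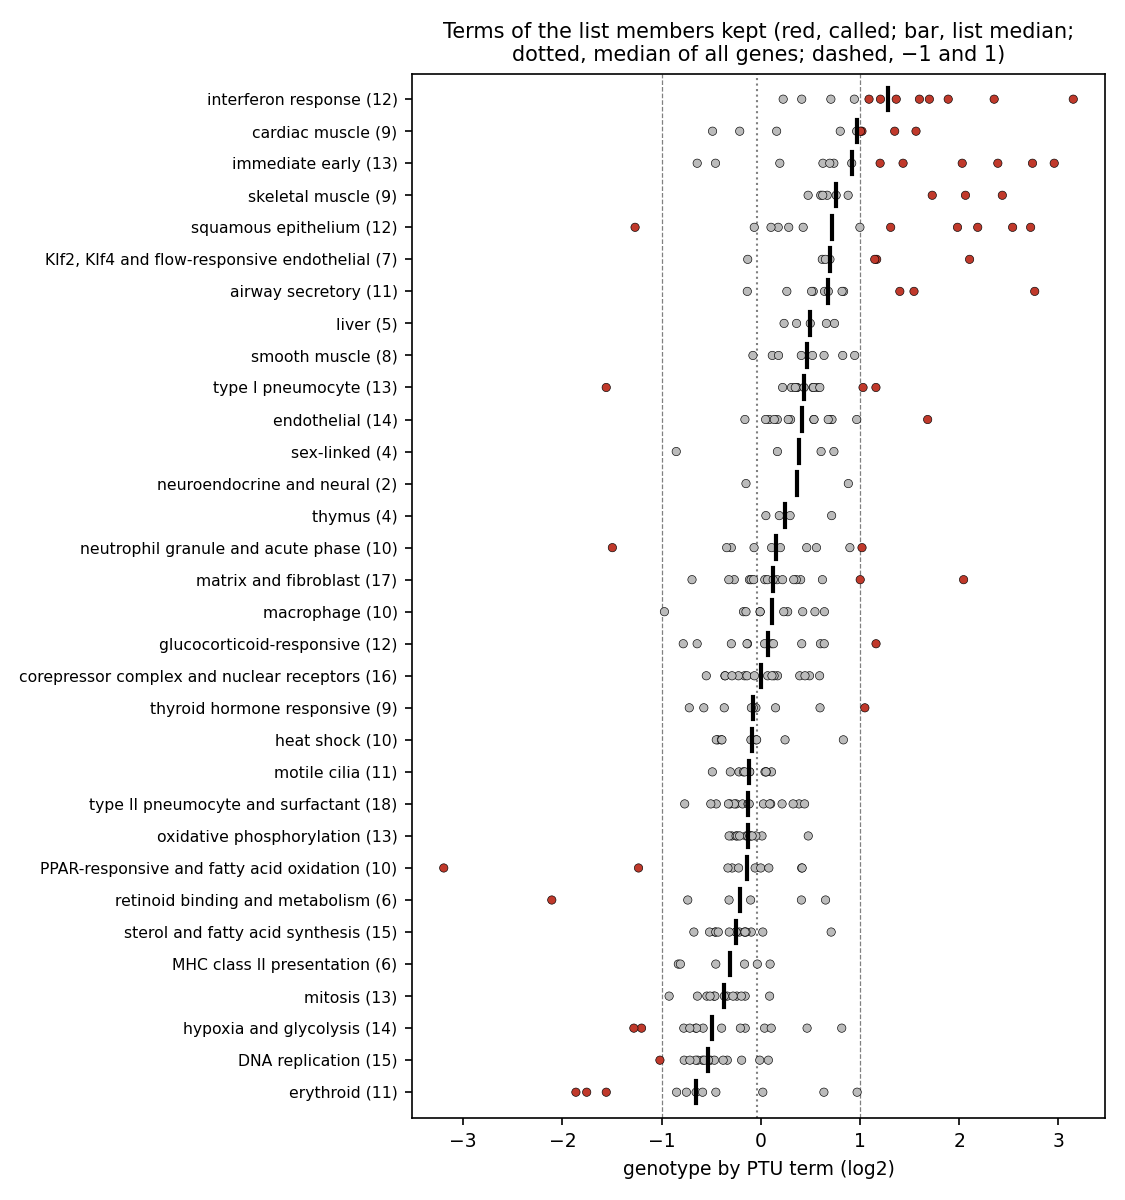
Each dot is the term of a kept list member (log2), with called members in red, list medians as black bars and the number of kept members in brackets. Medians run from 1.29 for the interferon response to -0.65 for erythroid genes, and the dotted line marks the median over all genes, -0.04.

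Negative terms came mainly from genes low in mRID with PTU and in wild type on control chow. Angptl4, an inhibitor of lipoprotein lipase induced by PPAR receptors and by fasting, read 6.89 and 7.07 in mRID with PTU, 8.27 and 8.33 in mRID on control chow, 8.53 and 8.53 in wild type with PTU, and 6.73 and 6.58 in wild type on control chow. It had the most negative term of all genes, -3.20 (array SE 0.12), and PTU was lower than control chow in mRID and higher in wild type. In Aspg, an asparaginase gene, the same pair of samples was low, with 5.61 and 5.59 in mRID with PTU, 7.13 and 6.98 in mRID on control chow, 7.02 and 7.11 in wild type with PTU, and 5.96 and 6.20 in wild type on control chow (term -2.44). Rbp7, a cellular retinol-binding protein gene, had a term of -2.11 and Npy2r, a neuropeptide Y receptor gene, of -1.93. Cyp2e1, a cytochrome P450 gene, read 7.71 and 7.69 in mRID with PTU, 8.62 and 8.68 in mRID on control chow, 8.84 on both arrays of wild type with PTU, and 8.17 on both of wild type on control chow (term -1.62, array SE 0.03). The peroxisomal thiolase gene Acaa1b had a term of -1.66. Within the list of PPAR-responsive and fatty acid oxidation genes, Angptl4 and the thioesterase gene Acot1 (-1.23) were 2 of 10 called. Over all genes 0.437% were called negative. The list median was -0.14, with Pdk4 at 0.41 and Cpt1b at -0.06.

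Crh, which encodes corticotropin-releasing hormone, had a term of -2.76 with the largest array SE of any called probe, 0.57. It read 6.02 and 6.77 in mRID with PTU, 6.40 and 5.78 in mRID on control chow, 7.48 and 8.04 in wild type with PTU, and 4.78 and 4.61 in wild type on control chow. The mRID arrays of the 2 diets overlapped, and the term over single arrays ran from -3.81 to -1.71. Saa3, an acute phase gene, also had wild type on control chow alone low (term -1.5). Glucocorticoid-responsive genes had 1 of 12 called, Crispld2 at 1.16, against 1.82% of all genes called positive, and a median of 0.07. Among them Fkbp5 lay at 0.11, Tsc22d3 at 0.60, Sgk1 at 0.64 and Per1 at -0.13.

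Erythroid genes had 3 of 11 members negative, against 0.437% of all genes, and a median of -0.65. The embryonic globin gene Hbb-y read 7.10 and 6.72 in mRID with PTU, 7.55 and 7.64 in mRID on control chow, 7.84 and 7.96 in wild type with PTU, and 6.67 and 6.77 in wild type on control chow (term -1.86). The embryonic globin gene Hba-x had a term of -1.56. Kel, the blood group antigen gene, had mRID with PTU alone low at 4.86 and 4.73, against 5.68 to 6.21 elsewhere (term -1.75). The adult globin gene Hba-a1 had a term of 0.02 and Hbb-b2 of 0.64, so globins differed among themselves, and Alas2, of heme synthesis, lay at 0.97. Globin genes are near-identical in parts, and which of them a probe binds was not checked. Tnfrsf10b, a TRAIL receptor gene, was the other large term of the mRID PTU sample alone low, with 8.28 and 8.04 there and 9.11 to 9.80 elsewhere (term -1.81). A dimmer Tnfrsf10b probe, near the detection limit, had a term of 0.18 and was not called.

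Hypoxia and glycolysis genes had 2 of 14 members negative, against 0.437% of all genes, and a median of -0.49. Egln3, an oxygen-sensing prolyl hydroxylase gene, read 9.80 and 9.88 in mRID with PTU, 9.98 and 9.80 in mRID on control chow, 10.41 and 10.59 in wild type with PTU, and 9.30 and 9.39 in wild type on control chow (term -1.20). On this probe wild type alone differed by diet. A dimmer called Egln3 probe (term -1.26) read 5.32 on both arrays of mRID with PTU. It read 5.63 and 5.66 in mRID on control chow, so there mRID differed by diet too. P4ha1, a collagen prolyl hydroxylase gene, had a term of -1.28. Slc2a1, the glucose transporter gene, was at -0.78 and Vegfa at 0.47. DNA replication genes had 1 of 15 called, the helicase subunit gene Mcm6 at -1.02, against 0.437% of all genes called negative. Of their terms 14 of 15 were below 0, against 55.9% of all genes, and the median was -0.53. Mitosis genes had 0 of 13 called, 12 of 13 below 0 and a median of -0.37. Mcm6 read 10.44 and 10.35 in mRID with PTU, 10.66 and 10.83 in mRID on control chow, 10.62 and 10.54 in wild type with PTU, and 9.92 on both arrays of wild type on control chow. The dimmer Mcm6 probes had terms of -0.70, -0.63 and -0.86 and were not called.

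Thyroid hormone responsive genes had terms of both signs. The list median was -0.08. Klf9, a transcription factor gene that thyroid hormone induces directly, was the 1 called member of 9, positive, against 1.82% of all genes. It read 11.03 and 11.15 in mRID with PTU, 10.40 and 10.57 in mRID on control chow, 10.16 and 10.09 in wild type with PTU, and 10.57 on both arrays of wild type on control chow (term 1.05, array SE 0.11). The mRID PTU arrays were the highest and the wild-type PTU arrays the lowest. Hr, the hairless corepressor gene, lay at -0.72, Gpd2, the mitochondrial glycerol phosphate dehydrogenase gene, at 0.60, and Me1, malic enzyme, at -0.08. With each array left out in turn the list median ran from -0.17 to 0.07. Of 16 genes of the corepressor complex and nuclear receptors 0 were called, with a median of 0.00. The deacetylase gene Hdac3 had a term of -0.16, Tbl1x 0.49, Tbl1xr1 -0.14 and Gps2 0.17.

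Sex-linked genes differed among the samples, though their probes did not all give the same order. The brighter Xist probe set wild type with PTU apart. Xist, transcribed from the inactive X chromosome of females, read 6.68 and 6.98 in mRID with PTU, 6.63 and 6.75 in mRID on control chow, 7.63 and 7.46 in wild type with PTU, and 6.53 and 6.57 in wild type on control chow. A second Xist probe averaged 6.54 in mRID with PTU, 5.96 in mRID on control chow, 6.59 in wild type with PTU and 6.0 in wild type on control chow, so it was high in both PTU samples and had a term of -0.02. The Y-linked gene Kdm5d read 7.58 and 7.72 in mRID with PTU, 7.64 and 7.63 in mRID on control chow, 6.97 and 6.93 in wild type with PTU, and 7.57 and 7.78 in wild type on control chow. The terms of the brighter Xist probe and of Kdm5d were -0.85 and 0.74, and the Y-linked genes Eif2s3y and Uty had 0.61 and 0.17. Both an X-inactivation transcript and Y-linked genes were detected in every sample. The brighter Xist probe and Kdm5d set apart the same sample as the 54 called probes in which wild type with PTU stood alone. Those probes, among them Oasl2, Ptx3 (1.64), Col4a3 and Egln3, were grouped by that pattern, and the second Xist probe did not share it. What part the sex-linked differences had in those terms was not tested.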

How the data were processed

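Lung RNA was amplified to biotin-labelled cRNA and hybridised to Illumina bead arrays, per the labels' protocols. GenomeStudio was used, with no version stated, per the submitters' processing notes. The first deposited table holds average signals, a linear intensity not normalized between arrays, and a detection p-value for each probe, per the file headers. A second deposited table holds the authors' normalized intensity values, with column medians of 52.27 to 52.36, so scaling between arrays is inferred from the values and its method stays unknown. Its values were neither logged nor centred and were used as an alternative.

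From the first table, log2 values were computed with neqc of limma 3.58.1 in R 4.3.3 (normexp background correction from detection p-values, an offset of 16, quantile normalization). This offset makes differences between weak signals smaller. Probes with a detection p under 0.05 on both arrays of a group were kept. Group means over 2 arrays gave the term, with tables built in Python 3.11.15. Columns carry a group name and a letter, so arrays are named by group. The array SE is the square root of the summed squared errors of the 4 means. A term over a group in which the probe was undetected on both arrays is given as a bound, computed against the lowest detected signal. The procedure, tested on simulated data of 14965 probes, recovered 200 of 200 changed probes, with 0 false calls. All planted changes were larger than the threshold and lay in the mRID PTU sample. The other probes had equal group means and differed by array noise alone. The simulation held no variation between RNA samples, so it does not show how many calls in the real data are false.

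Platform annotation gave 1 symbol for 23978 probes, none for 1719 and several for 0. RefSeq matched 23962 and changed 0 symbols. Of the kept probes 899 had no name, and 2720 genes had several kept probes. Genes were named by rule: the 12 largest called terms of each sign, the 4 largest in each frequent pattern, called members of 32 lists with up to 4 further members, the receptor and sex-linked genes, and genes whose probes are compared. A few members named beyond that rule were chosen after their values were seen. The comparison, the lists and the rule were chosen with earlier results of these data known. The transcript level of the mutated gene is not reported here. The number of arrays limits the precision, and with 1 RNA sample per group, more arrays would not add variation between embryos.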

Additional observations from a re-analysis of the deposited data

Results flagged for a closer look

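Among the genes named above, 45 had a PTU difference that ran in opposite directions in mRID and in wild type on every pair of arrays. In some of them the wild-type difference was small, such as -0.10 in Acta1, -0.19 in Bbx and -0.30 in Zc3h13. The difference between the genotypes was not tested, since each group was 1 RNA sample. The value given for each gene is its genotype by PTU term, and value and pattern are those of its brightest probe. Some dimmer probes of Pcolce2, Acot1, Mcm6, Col4a4, Ccn1 and Tnfrsf10b had another pattern.

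The mRID PTU sample alone was high for Zc3h13 (2.46), Klf6 (2.10), Myh8 (2.06), Bbx (2.02), Sec14l3 (1.54), Edn1 (1.15), Acta1 (1.73) and Klf9 (1.05), and alone low for Tnfrsf10b (-1.81) and Kel (-1.75). It was high together with wild type on control chow for Ier2 (2.96), Fos (2.74), Myl1 (2.43), Egr1 (2.39), Dusp1 (1.20), Ccn1 (2.03), Car4 (1.68), Crispld2 (1.16) and Camp (1.02). Of these, Fos, Ier2, Egr1, Ccn1 and Dusp1 are immediate early genes.

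Wild type with PTU alone was low for Pcolce2 (2.45), Oasl2 (1.70), Gm4956 (1.66), Ptx3 (1.64), Col4a3 (1.16), Col4a4 (1.03), Isg15 (1.60), Irf7 (1.09) and Usp18 (1.37). Wild type on control chow alone was high for Ifit3 (3.15), Ifi27l2a (2.35), Fosb (1.43) and Klf2 (1.17), and alone low for Cldn6 (-1.58), Acot1 (-1.23) and Mcm6 (-1.02). The pair of mRID on control chow and wild type with PTU was high for Angptl4 (-3.20), Aspg (-2.44), Rbp7 (-2.11), Npy2r (-1.93), Hbb-y (-1.86), Acaa1b (-1.66), Cyp2e1 (-1.62), Igfbp2 (-1.56), Hba-x (-1.56) and P4ha1 (-1.28). The Fosb value is a fitted one, because 2 groups were undetected on both arrays, and its bound is 0.73. The direction of Fosb in mRID rests on signals near the detection limit.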

How the results depend on the processing

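No paired analysis was possible because the terms come from no test, and the array columns of the signal table carry letters and not the technical replicate numbers of the labels. The number of calls depended on how dim signals were treated. With the authors' normalized values, 140 probes were positive and 28 negative, without background correction 141 and 27, and with an offset of 50 in place of 16 it was 143 and 31, against 290 and 64. Positive and negative genes then numbered 100 and 22, 101 and 21, and 103 and 24. Probes with 1 sample apart numbered 131, 132 and 136, those of mRID with PTU 72, 74 and 75, of wild type with PTU 28, 28 and 30, of wild type on control chow 31, 30 and 31, and pair splits 37, 36 and 38. The mRID PTU sample alone still held 42.9% to 44.1% of the called probes under these 3 settings. A threshold of 1.5-fold called 1002 positive and 538 negative probes, 665 and 367 genes and 127 list members, with 1068 single-sample probes, 518 of mRID with PTU, 254 of wild type with PTU, 223 of wild type on control chow and 472 splits. At that threshold the share of the mRID PTU sample alone fell to 33.64%, from 46.05% at 2-fold. Pair splits rose from 20.9% to 30.65%, and positive probes fell from 81.92% to 65.06% of those called. When the sample farthest from the mean of the others named the driver, wild type with PTU had 84 probes and 0 were splits. Median scaling, the detection filters, limma on the arrays and the mean over a gene's probes kept these counts within 1.5 times. Leaving out 1 array at a time gave 294 to 321 positive and 64 to 82 negative probes. Leaving out an array could not reverse the term of a called probe, since a call needed 1 sign in all 16 array choices. The 1.5-fold threshold, the farthest-sample rule and limma reused the same terms, and the detection filters the same probe values. Over 19 alternatives and 65 called named genes, 0 terms changed sign, which those settings fixed in large part. Under the threshold in some alternative fell 19 genes. Of 32 list medians 4 lay on both sides of 0 over these alternatives: thyroid hormone responsive (-0.17 to 0.07), corepressor complex (-0.06 to 0.07), macrophage (-0.01 to 0.15) and neural genes (-0.07 to 0.50). Other medians kept their sign but moved, as for interferon response (0.85 to 1.37), squamous (0.10 to 1.65), cardiac (0.50 to 1.06), skeletal muscle (0.43 to 1.24), flow-responsive (0.65 to 1.15), liver (0.21 to 0.59) and erythroid genes (-0.72 to -0.34). The interferon median was the highest in 15 of 19 alternatives. Dim probes limit precision, and no setting adds variation between embryos.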

Other observations

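Interferon-induced genes outside the fixed list were called too. They were picked here after their values were seen, so they are a description. Gbp3, a guanylate-binding protein gene, read 8.36 and 8.37 in mRID with PTU, 7.74 and 7.67 in mRID on control chow, 7.47 and 7.37 in wild type with PTU, and 8.83 and 8.91 in wild type on control chow (term 2.11). The antiviral genes Oas2, Mx2, Oas1g and Dhx58 had terms of 1.96, 1.69, 1.30 and 1.23. In all 5 of these genes the largest gap set mRID with PTU and wild type on control chow apart as the higher pair. In every called member of the interferon list but Rsad2 the same samples were the highest. In those members the largest gap lay elsewhere, so the pattern was named differently.

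Histone genes of chromosome 13 were among the negative terms, also picked after their values were seen. H4c9, H3c6 and H4c11 had terms of -1.23, -1.04 and -1.03, with mRID on control chow and wild type with PTU as the higher pair. H4c12 had a term of -1.25 and was the 1 called gene with mRID on control chow alone high. It read 4.97 and 4.95 in mRID with PTU, 5.95 and 5.96 in mRID on control chow, 5.50 and 5.39 in wild type with PTU, and 5.34 and 5.02 in wild type on control chow. Histone genes are near-identical copies, so which copy a probe measured is uncertain.

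Among further genes with the mRID PTU sample alone high, Irs2, an adaptor of the insulin receptor, read 7.19 and 7.13 in mRID with PTU and 5.13 to 5.38 in the other groups (term 2.00). Atxn1, the ataxin gene, had a term of 1.77 and Lipa, lysosomal acid lipase, of 1.78. Lims1, a focal adhesion gene, had a term of 1.78 with an array SE of 0.43, since its mRID PTU arrays read 6.70 and 7.45.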
